A study of Homo sapiens with 12 samples.

Results

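Human aldehyde dehydrogenase (ALDH) genes were followed through total RNA of 3 ovarian cell lines, namely ALDH1A1, ALDH1A2, ALDH1A3, ALDH1B1, ALDH1L2, ALDH2, ALDH3A1, ALDH3A2, ALDH3B1 and ALDH3B2. The 10 genes were taken by name, though with earlier results of these data known. They are 10 of 61533 gene IDs in the tables, with 133 of the 244939 transcripts. PEO-4 is a high-grade serous ovarian carcinoma line that was grown in RPMI 1640 medium, and SKOV-3 is an ovarian carcinoma line, labelled serous cystadenocarcinoma and described by the study as clear cell, that was grown in McCoy's 5A medium. T1074 is an ovarian epithelial line immortalized with SV-40 and grown in Prigrow I medium, all 3 media held fetal bovine serum, and the labels give all 3 lines as wild type and name no treatment. Each line gave 4 libraries of rRNA-depleted, strand-specific, paired-end RNA-seq, so each comparison is between 4 and 4 libraries of single lines. The line and its medium cannot be told apart in this design, and whether the replicates of a line came from different cultures is not given in the sources used here. Every p-value therefore rests on the spread among these libraries alone, and that spread may be technical.

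Aldehyde dehydrogenases oxidize aldehydes to carboxylic acids with NAD+ or NADP+ as the cofactor, and the family is divided by substrate and by compartment. The ALDH1A enzymes of the cytosol turn retinaldehyde into retinoic acid, the ligand of the retinoic acid receptors, while mitochondrial members clear acetaldehyde or a one-carbon folate and the ALDH3 enzymes act on fatty and aromatic aldehydes, many of them made by lipid peroxidation. High ALDH activity is widely used to sort stem-like cells from ovarian carcinoma, and ALDH1A1 is the member most often stained for in that tissue.

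The sequence before the transcription start is shown for the member with the highest level of all, ALDH1A3, for ALDH1A1, which was near the detection limit in all 3 lines, and for a second start of ALDH3A2 whose transcripts differed among the lines. Each line holds the 250 bases upstream of the start on the strand of the gene, 5′ to 3′, from RefSeq on GRCh38.p14. Capitals mark CCAAT, read on both strands (CCAAT or ATTGG), the element bound by the factor NF-Y, and the upstream ALDH3A2 window holds no match and is all in lower case.
ALDH1A3, chr15:100879581-100879830, plus strand: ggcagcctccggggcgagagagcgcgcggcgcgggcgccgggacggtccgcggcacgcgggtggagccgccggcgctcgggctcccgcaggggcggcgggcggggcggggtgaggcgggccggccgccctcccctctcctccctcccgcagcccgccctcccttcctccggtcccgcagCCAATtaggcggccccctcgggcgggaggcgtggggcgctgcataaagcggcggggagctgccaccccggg
ALDH1A1, chr9:72953054-72953303, minus strand: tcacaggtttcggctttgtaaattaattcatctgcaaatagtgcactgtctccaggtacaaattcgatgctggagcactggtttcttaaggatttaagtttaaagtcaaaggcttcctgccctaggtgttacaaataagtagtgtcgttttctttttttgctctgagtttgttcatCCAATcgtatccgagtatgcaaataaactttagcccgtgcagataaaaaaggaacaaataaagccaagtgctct
ALDH3A2 upstream start, chr17:19647886-19648135, plus strand: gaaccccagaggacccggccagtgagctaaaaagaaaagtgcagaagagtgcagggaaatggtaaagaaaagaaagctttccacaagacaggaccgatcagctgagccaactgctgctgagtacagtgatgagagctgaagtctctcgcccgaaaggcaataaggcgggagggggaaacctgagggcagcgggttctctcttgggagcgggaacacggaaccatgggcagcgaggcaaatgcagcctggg
The ALDH1A3 window is 82.4% G or C and holds 38 CG pairs, and 97.3% of the 35116 promoters in the table have no more than that. The ALDH1A1 window is 38.4% G or C with 6 CG pairs, and the upstream ALDH3A2 window is 55.6% G or C with 9, against a median of 11 over all promoters. CCAAT lies 71 bases before the start in ALDH1A3 and 74 bases before it in ALDH1A1, and it is in 32.0% of all promoters of this length. TATAAA, also read on both strands, is in 10.7% of all promoters and in none of the windows of these genes. Windows were found for ALDH1A1, ALDH1A2, ALDH1A3, ALDH1B1, ALDH3A2 and ALDH3B1, and the table holds no entry for ALDH1L2, ALDH2, ALDH3A1 and ALDH3B2.

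The deposited expected counts, RSEM's estimates of the fragments of each transcript, summed to between 38690954 and 47148161 per PEO-4 library, between 47340136 and 55739060 per SKOV-3 library and between 19780836 and 38583368 per T1074 library, with the lowest total in T1074 replicate 1. A gene is set between lines in CPM (library depth divided out, with TMM factors), and genes are set against each other in TPM, which also divides by transcript length. Lines were compared by edgeR's quasi-likelihood F-test, fitted once to the 12 libraries, with Benjamini-Hochberg adjustment over 19898 genes and a threshold of 0.05. EPCAM, an epithelial surface protein, was at 163 ± 4.31 CPM in PEO-4 and 24.6 ± 3.24 CPM in SKOV-3 cells, against 0.0964 ± 0.036 CPM in T1074 cells (SD, n = 4 each), and PDGFRB, a mesenchymal receptor, was at 0.324 ± 0.0501 and 0.195 ± 0.0524 CPM in PEO-4 and SKOV-3, against 30.4 ± 12.4 CPM in T1074. The epithelial list (6 genes) summed to between 2377 and 3359 CPM per PEO-4 library, between 943 and 1829 CPM per SKOV-3 library and between 710 and 1942 CPM per T1074 library. Against T1074, 4 of its genes were higher and 0 lower in PEO-4, and 4 were higher and 1 lower in SKOV-3. The lower gene was KRT18 (log2 fold change -1.13 ± 0.27, edgeR adjusted p = 0.00171). The mesenchymal list (8 genes) summed to at most 102.5 CPM in PEO-4, to at least 1028 CPM in SKOV-3 and to at least 909 CPM in T1074, and the part of these marker differences in the ALDH values was not tested. T1074, labelled as epithelial, had KRT8 at 616 ± 304 CPM and CDH1 at 0.354 ± 0.083 CPM. In SKOV-3 against T1074 the mesenchymal markers went both ways, 3 higher (VIM, COL1A2 and LUM) and 5 lower, PDGFRB among the lower, and in PEO-4 against T1074 they were 1 higher and 7 lower. The blood cell list (5 genes) summed to between 1.21 and 1.98 CPM per PEO-4 library, between 1.6 and 6.83 CPM per SKOV-3 library and between 8.93 and 24.4 CPM per T1074 library. Its defining marker PTPRC had 0 counts in PEO-4, at most 1 in a SKOV-3 library and up to 12 in a T1074 library, and CD3E was at or under 3 counts in every library. Only 2 genes of this list were tested, CD68 and CD14, and both were lower in the cancer lines than in T1074. Their log2 fold changes were -3.25 ± 0.43 and -3.14 ± 0.39 in PEO-4, and -1.12 ± 0.39 and -5.82 ± 0.48 in SKOV-3 (largest edgeR adjusted p 0.0189). In bulk RNA, fewer cells that express a gene and less RNA per cell cannot be told apart.

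Of the 10 genes, 9 passed the filter on low counts, and ALDH1A1 did not. Among these, 8 differed among the 3 lines (edgeR, adjusted p under 0.05), where 90.4% of all genes tested did, and ALDH1B1 alone did not. In PEO-4 against T1074, 6 members passed, 4 higher and 2 lower, beside 74.1% of all genes tested, 36.3% higher and 37.8% lower. In SKOV-3 against T1074, 6 passed, 2 higher and 4 lower, beside 67.8% of all genes, 33.3% higher and 34.5% lower. In PEO-4 against SKOV-3, 8 passed, 4 in each direction, beside 75.2% of all genes, 38.5% higher and 36.7% lower. These shares are near the background, so the number of members called is not a result about the family. The sizes were set beside those of all genes as well. With at least a 2-fold difference, 5, 6 and 7 members passed in PEO-4 against T1074, SKOV-3 against T1074 and PEO-4 against SKOV-3, against 49.4%, 41.5% and 50.9% of all genes. The libraries of the 2 lines did not overlap in CPM for 6, 6 and 8 of the 9 members in the same comparisons, against 66.6%, 60.3% and 75.6% of all genes. The members' median absolute log2 fold change was 1.99 in PEO-4 against T1074, with ALDH3B2 at its lower bound, or 1.48 without it. In SKOV-3 against T1074 the median was 1.74 with the fitted value of ALDH3B2, or 3.15 over the 8 other members. ALDH3B2 had 1 count in SKOV-3 and 0 in T1074. In PEO-4 against SKOV-3 the median was 1.55, or 1.46 without ALDH3B2. Over all genes tested, none left out, the medians were 1.02, 0.84 and 1.06. The comparisons share lines, so they are given side by side and are not independent.

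**Figure D1:**
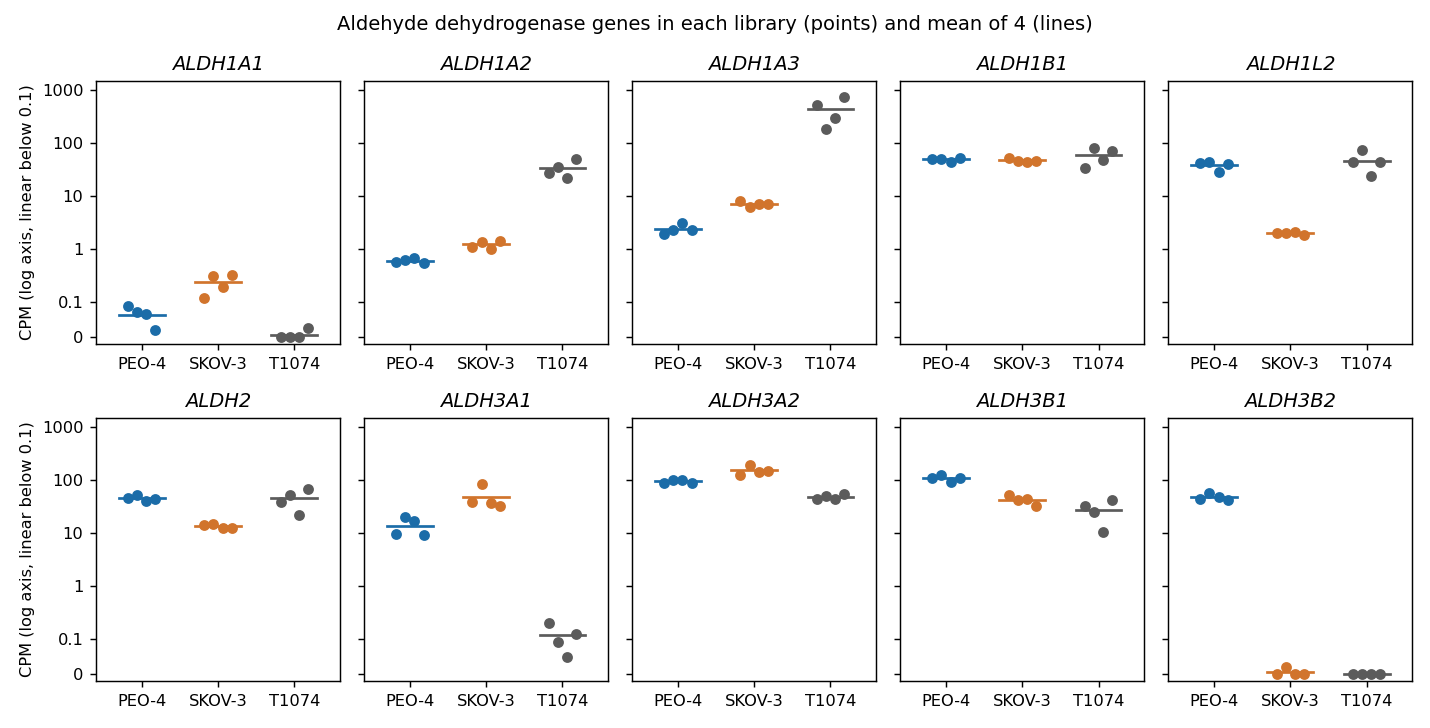
CPM of each of the 10 ALDH genes (y axis, logarithmic above 0.1 and linear below) in the 4 libraries of PEO-4, SKOV-3 and T1074, with 1 point per library and a line at the mean. ALDH1A2 and ALDH1A3 are highest in T1074, ALDH3A1 is at most 0.201 CPM in T1074, ALDH1L2 and ALDH2 are lowest in SKOV-3, and ALDH3B2 is above 1 CPM in PEO-4 alone.

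Among the retinaldehyde dehydrogenases, ALDH1A2 and ALDH1A3 were highest in T1074 and ALDH1A1 was near the limit of detection. ALDH1A3 (ENSG00000184254.17, chr15:100877714-100916626, plus strand), which makes retinoic acid from all-trans-retinaldehyde, was at 1.91, 2.32, 3.12 and 2.26 CPM in PEO-4, 8.12, 6.25, 7.03 and 6.95 CPM in SKOV-3, and 534, 185, 299 and 742 CPM in T1074 libraries. Every T1074 library was above every cancer line library, every PEO-4 library was below every SKOV-3 library, and the T1074 libraries themselves spanned 4.01-fold, with replicate 2 the lowest and replicate 4 the highest. The log2 fold change was -7.51 ± 0.42 in PEO-4 against T1074 (SE, edgeR adjusted p = 1.02e-09), -5.96 ± 0.39 in SKOV-3 against T1074 (6.9e-09) and -1.55 ± 0.34 in PEO-4 against SKOV-3 (0.000911). In fold terms, ALDH1A3 was 182-fold lower in PEO-4 and 62.0-fold lower in SKOV-3 than in T1074 cells.

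ALDH1A2 (ENSG00000128918.15, chr15:57953424-58497866, minus strand), the main retinoic acid synthase of the early embryo, followed the same order at lower levels. It was at 0.556, 0.614, 0.666 and 0.541 CPM in PEO-4, 1.11, 1.38, 0.985 and 1.43 CPM in SKOV-3, and 27.9, 36.3, 21.8 and 49.5 CPM in T1074 libraries. None of the 3 groups of libraries overlapped with another. On the log2 scale the difference was -5.83 ± 0.27 in PEO-4 against T1074 (edgeR adjusted p = 1.58e-10), -4.78 ± 0.25 in SKOV-3 against T1074 (7.09e-10) and -1.05 ± 0.27 in PEO-4 against SKOV-3 (0.00275). The annotated span of ALDH1A2 overlaps several other genes, among them AQP9 and LIPC on the opposite strand and the antisense RNA ALDH1A2-AS1, and the strand setting of the counting is not given in the sources used here.

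ALDH1A1 (ENSG00000165092.13, chr9:72900671-73080442, minus strand), the cytosolic retinaldehyde dehydrogenase used as a marker of stem-like ovarian cancer cells, was close to the limit of detection. Its counts were 3, 3, 3 and 1 in PEO-4, 6, 16, 9 and 16 in SKOV-3, and 0, 0, 0 and 1 in T1074 libraries, or 0.0616 ± 0.0284, 0.236 ± 0.0993 and 0.00622 ± 0.0124 CPM (SD, n = 4 each). A total of 3 counts per library, taken as the floor, corresponds to 0.0576 to 0.15 CPM. SKOV-3 libraries were above all others, with 47 counts in all, against 1 count in T1074, a ratio of 34.2 with an exact 95% interval of 5.84 to 1380 that covers counting error only. Against the 10 counts of PEO-4 the ratio of SKOV-3 was 3.98 (1.98 to 8.83). The gene failed the filter on low counts and has no adjusted p in the fit used throughout. Without that filter, the edgeR adjusted p was 3.26e-05 for SKOV-3 against T1074, 0.00629 for PEO-4 against SKOV-3 and 0.0363 for PEO-4 against T1074. Every PEO-4 and T1074 library was at or under the floor, so no fold is given between them.

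Among the other genes of retinoid supply, oxidation and signalling, a list of 24 with 22 tested, 10 were higher and 5 lower in PEO-4 than in T1074, and 9 were higher and 8 lower in SKOV-3 than in T1074. In PEO-4 against SKOV-3, 9 were higher and 6 lower. The median log2 fold change was 0.65, 0 and 0.28 in these comparisons, against -0.01, -0.03 and 0.05 over all genes. Over all genes tested, 36.3% were higher and 37.8% lower in PEO-4 than in T1074, 33.3% and 34.5% in SKOV-3 against T1074, and 38.5% and 36.7% in PEO-4 against SKOV-3. CRABP2, which carries retinoic acid to its nuclear receptors, was at 232.5 ± 52.1 CPM in PEO-4, 0.382 ± 0.192 CPM in SKOV-3 and 6.48 ± 2.09 CPM in T1074 cells (SD, n = 4 each). It was thus higher in PEO-4 (log2 fold change 5.15 ± 0.28, edgeR adjusted p = 9.2e-10) and lower in SKOV-3 (-4.09 ± 0.32, 5.62e-08) than in T1074. LRAT, which esterifies retinol for storage, had 576 counts in PEO-4 and 613 in SKOV-3, against 3 in T1074, a ratio of 165 (56.1 to 802) and of 149 (50.6 to 723). CRABP1, which binds retinoic acid in the cytosol, had 109 counts in PEO-4 and 806 in SKOV-3, against 2 in T1074, a ratio of 46.8 (12.7 to 391) and of 293 (80.9 to 2420). RBP4, the retinol carrier of plasma, was at 0.791 ± 0.28 CPM in PEO-4 and 20.2 ± 6.72 CPM in SKOV-3, against 0.451 ± 0.34 CPM in T1074. It was higher in SKOV-3 than in T1074 by 5.45 ± 0.42 on the log2 scale (4.41e-08), and the value of PEO-4 against T1074 was 0.78 ± 0.45, which did not pass (0.129).

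The mitochondrial members separated SKOV-3 from the other lines or did not differ. ALDH1L2 (ENSG00000136010.14, chr12:105019784-105107643, minus strand) oxidizes the formyl group of formyltetrahydrofolate to carbon dioxide and makes NADPH in mitochondria. It was at 43.0, 43.5, 28.5 and 39.8 CPM in PEO-4, 2.03, 1.98, 2.06 and 1.82 CPM in SKOV-3, and 44.9, 72.9, 24.3 and 44.6 CPM in T1074 libraries. All 4 SKOV-3 libraries lay below every other library, and the PEO-4 and T1074 libraries overlapped. Its log2 fold change was -4.56 ± 0.29 in SKOV-3 against T1074 (edgeR adjusted p = 5.32e-09) and 4.29 ± 0.28 in PEO-4 against SKOV-3 (6.44e-09), whereas that of PEO-4 against T1074 was -0.27 ± 0.24 (0.322), with limits of 0.593 to 1.16 for the ratio at 2 SE to either side. That last value passed the threshold without T1074 replicate 3 (-0.48, adjusted p = 0.0249) and was 0.02 without T1074 replicate 2.

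ALDH2 (ENSG00000111275.13, chr12:111766887-111817532, plus strand), the mitochondrial enzyme that clears acetaldehyde after ethanol, was also lowest in SKOV-3, with a smaller difference. It was at 46.4, 51.2, 39.5 and 44.3 CPM in PEO-4, 13.9, 14.5, 12.5 and 12.4 CPM in SKOV-3, and 38.6, 51.4, 21.3 and 67.0 CPM in T1074 libraries. SKOV-3 was again below every other library, and T1074 replicate 3 was the lowest of its line. The log2 fold change was -1.74 ± 0.25 in SKOV-3 against T1074 (edgeR adjusted p = 2.49e-05) and 1.77 ± 0.25 in PEO-4 against SKOV-3 (1.71e-05). PEO-4 against T1074 gave 0.02 ± 0.24 (adjusted p = 0.934, ratio 0.726 to 1.42 at 2 SE), a value whose sign changed without T1074 replicate 1 (-0.04) or replicate 3 (-0.21). Of the 75-base stretches of its main transcript, 7.05% are shared with transcripts of other genes, among them the overlapping gene ENSG00000257767, and the main transcripts of the other 9 members share none.

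ALDH1B1 (ENSG00000137124.8, chr9:38392702-38398661, plus strand), a mitochondrial enzyme close to ALDH2 that also takes acetaldehyde, was the member with no difference that passed. It averaged 49.3 ± 3.22 CPM in PEO-4, 47.2 ± 3.88 CPM in SKOV-3 and 59.0 ± 22.0 CPM in T1074 cells (SD, n = 4 each), and the T1074 libraries ran from 33.5 to 82.3 CPM around all the others. The differences were -0.26 ± 0.2 in PEO-4 against T1074 on the log2 scale (edgeR adjusted p = 0.259), -0.32 ± 0.2 in SKOV-3 against T1074 (0.175) and 0.06 ± 0.2 in PEO-4 against SKOV-3 (0.797). At 2 SE the ratios ran from 0.627 to 1.11, 0.601 to 1.06 and 0.786 to 1.39. Without T1074 replicate 1, the shallowest library, ALDH1B1 passed the threshold as lower in PEO-4 (-0.45, adjusted p = 0.0147) and in SKOV-3 (-0.51, 0.00882) than in T1074.

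Of 14 genes of folate one-carbon metabolism, the pathway of ALDH1L2, 3 were higher and 6 lower in PEO-4 than in T1074, 7 higher and 6 lower in SKOV-3 than in T1074, and 5 higher and 7 lower in PEO-4 than in SKOV-3, with medians of -0.33, 0.17 and -0.24 on the log2 scale. Over all genes the shares were 36.3% higher and 37.8% lower, 33.3% and 34.5%, and 38.5% and 36.7%, with medians of -0.01, -0.03 and 0.05, and nothing particular to the list is read from its counts. TYMS, thymidylate synthase, was at 12.7 ± 4.99 CPM in PEO-4 and 34.5 ± 11.5 CPM in SKOV-3, against 163 ± 31.4 CPM in T1074 cells. It was lower in PEO-4 (log2 fold change -3.68 ± 0.3, edgeR adjusted p = 5.33e-08) and in SKOV-3 (-2.24 ± 0.28, 6.16e-06) than in T1074. GLDC, the decarboxylase of glycine cleavage, was highest in PEO-4 at 36.7 ± 1.14 CPM, with 3.42 ± 0.114 CPM in SKOV-3, against 0.811 ± 0.448 CPM in T1074. SARDH, which demethylates sarcosine in mitochondria, had 437 counts in PEO-4, none in SKOV-3 and 380 in T1074, so that it was at least 43.3-fold lower in SKOV-3 than in T1074 against a floor of 3 counts per library.

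Of the ALDH3 members, all 4 were higher in PEO-4 than in T1074, and ALDH3A1 and ALDH3A2 were also higher in SKOV-3 than in T1074. Over all genes tested, 36.3% were higher in PEO-4 and 33.3% in SKOV-3 than in T1074. Nothing about the subfamily as a whole is read from these counts. ALDH3A1 (ENSG00000108602.18, chr17:19737984-19748943, minus strand) oxidizes aromatic and medium-chain aldehydes, is abundant in the cornea and can inactivate cyclophosphamide metabolites. It was at 9.46, 19.6, 16.7 and 9.06 CPM in PEO-4, 37.7, 85.2, 36.5 and 32.1 CPM in SKOV-3, and 0.201, 0.0916, 0.049 and 0.124 CPM in T1074 libraries, where the counts were 4, 4, 2 and 5. No libraries of any pair of lines overlapped, and SKOV-3 replicate 2 stood above the rest of its line. In edgeR the log2 fold change was 7 ± 0.52 in PEO-4 against T1074 (edgeR adjusted p = 2.19e-08), 8.8 ± 0.52 in SKOV-3 against T1074 (3.04e-09) and -1.8 ± 0.32 in PEO-4 against SKOV-3 (0.000136). From the summed counts, 2332 in PEO-4 and 9639 in SKOV-3 against 15 in T1074, the ratios were 134 (80.8 to 239) and 467 (283 to 835), with exact 95% intervals for counting error.

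ALDH3A2 (ENSG00000072210.19, chr17:19648136-19685760, plus strand), the fatty aldehyde dehydrogenase of the endoplasmic reticulum whose loss causes Sjögren-Larsson syndrome, lies 52.2 kb from ALDH3A1. It was at 88.9, 98.2, 99.4 and 88.4 CPM in PEO-4, 125, 191, 142 and 149 CPM in SKOV-3, and 43.5, 50.5, 43.1 and 54.1 CPM in T1074 libraries. The order of the lines was that of ALDH3A1, without overlap, at far smaller ratios. The log2 fold change was 0.97 ± 0.13 in PEO-4 against T1074 (edgeR adjusted p = 8.9e-06), 1.67 ± 0.13 in SKOV-3 against T1074 (5.28e-08) and -0.69 ± 0.13 in PEO-4 against SKOV-3 (0.00019). SLC47A2 overlaps the annotated span on the opposite strand.

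ALDH3B1 (ENSG00000006534.17, chr11:68008578-68029282, plus strand), which oxidizes lipid-derived aldehydes at the plasma membrane, was highest in PEO-4. It was at 109, 124, 93.1 and 108 CPM in PEO-4, 50.9, 40.9, 43.99 and 31.9 CPM in SKOV-3, and 32.6, 24.7, 10.3 and 41.9 CPM in T1074 libraries. PEO-4 was above every other library, while SKOV-3 and T1074 overlapped. The log2 fold change was 1.99 ± 0.3 in PEO-4 against T1074 (edgeR adjusted p = 3.57e-05), 1.37 ± 0.3 in PEO-4 against SKOV-3 (0.000762) and 0.62 ± 0.3 in SKOV-3 against T1074, which did not pass (0.0788). Without T1074 replicate 4 the last value was 0.92 and passed (adjusted p = 0.0128).

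ALDH3B2 (ENSG00000132746.15, chr11:67662155-67681224, minus strand), a close relative of ALDH3B1 that lies 327.4 kb from it and whose mouse counterpart is found on lipid droplets, was detected in PEO-4 and hardly elsewhere. It was at 43.0, 57.3, 46.8 and 40.9 CPM in PEO-4 libraries. SKOV-3 had 1 count in replicate 2 and none in the other 3 libraries, and T1074 had none in 4. PEO-4 summed to 7913 counts and was at least 512-fold higher than T1074, against a floor of 3 counts per library. Its ratio to the 1 count of SKOV-3 was 9350, with an interval of 1680 to 369000. No fold is given between SKOV-3 and T1074, since both were at or under the floor.

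**Figure D2:**
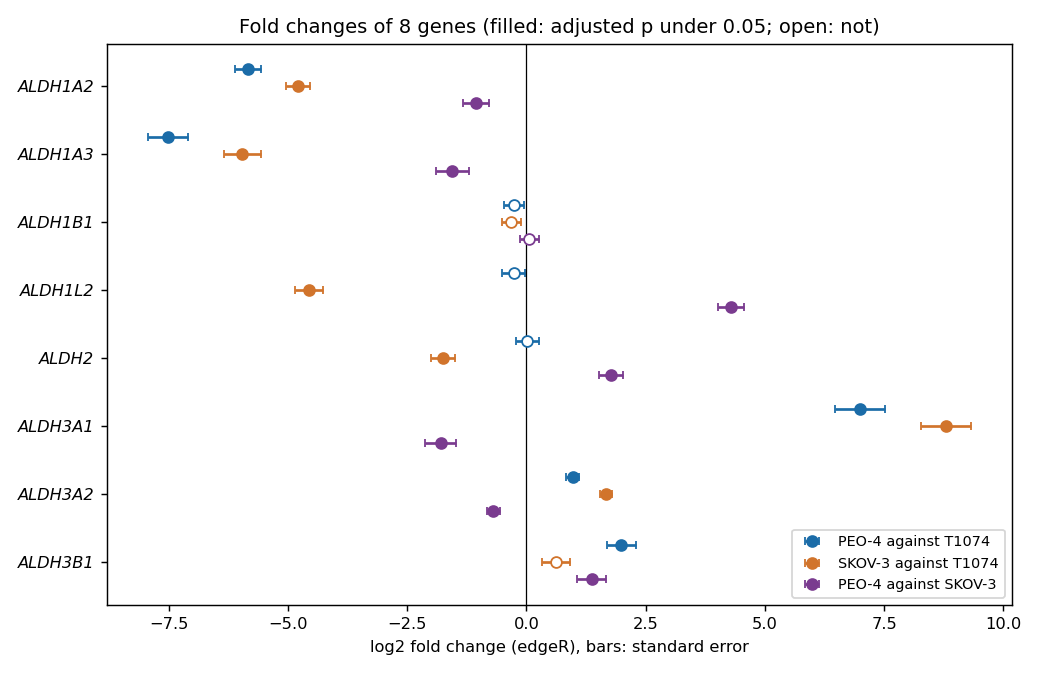
Log2 fold change of 8 ALDH genes (x axis) in PEO-4 against T1074, SKOV-3 against T1074 and PEO-4 against SKOV-3, with bars of 1 standard error, filled where the edgeR adjusted p was under 0.05 and open where it was not. ALDH1A2 and ALDH1A3 lie left of 0 in all 3 comparisons, ALDH3A1 reaches 7 and 8.8 against T1074, and ALDH1B1 stays within 0.32 of 0; ALDH1A1 and ALDH3B2 are left out because their counts were too low in at least 1 line.

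Per transcript length, the make-up of the family differed among the lines. The summed TPM of the 10 genes was 45.9 ± 7.19 in PEO-4, 45.3 ± 9.3 in SKOV-3 and 130 ± 47.5 in T1074 cells (SD, n = 4 each). Protein-coding genes took between 11.4% and 15.1% of all TPM in PEO-4 libraries, between 14.5% and 18.6% in SKOV-3 libraries and between 14.4% and 25.8% in T1074 libraries, and on a scale of protein-coding genes alone the sums were 335, 282 and 665. ALDH1A3 made up 60.5% ± 14.6 of the sum in T1074, with 38.9% to 69.8% in single libraries, against 0.785% ± 0.222 in PEO-4 and 2.22% ± 0.678 in SKOV-3. ALDH3B1 and ALDH3A2 led in PEO-4, at 26.1% ± 2.24 and 26.0% ± 2.06. ALDH3A2 led in SKOV-3 with 43.4% ± 2.97, and ALDH3A1 followed with 22.4% ± 6.44.

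In PEO-4 the order of TPM was ALDH3B1 (11.9 ± 2.01), ALDH3A2 (11.9 ± 1.74), ALDH2 (6.19 ± 0.97), ALDH3B2 (6.02 ± 1.35), ALDH1B1 (4.86 ± 0.529), ALDH3A1 (2.73 ± 1.2), ALDH1L2 (1.68 ± 0.256), ALDH1A3 (0.363 ± 0.123), ALDH1A2 (0.208 ± 0.138) and ALDH1A1 (0.015 ± 0.0129). The overlapping neighbours were ALDH3B1 with ALDH3A2, ALDH2 with ALDH3B2, ALDH3B2 with ALDH1B1, ALDH3A1 with ALDH1L2, and ALDH1A3 with ALDH1A2. In SKOV-3 the order was ALDH3A2 (19.6 ± 4.15), ALDH3A1 (10.5 ± 5.33), ALDH1B1 (5.59 ± 0.477), ALDH3B1 (5.55 ± 1.3), ALDH2 (2.26 ± 0.136), ALDH1A3 (0.96 ± 0.184), ALDH1A2 (0.573 ± 0.187), ALDH1L2 (0.13 ± 0.0523) and ALDH1A1 (0.045 ± 0.00577), with ALDH3B2 at 0. The overlapping neighbours were ALDH3A2 with ALDH3A1, ALDH1B1 with ALDH3B1, and ALDH1A3 with ALDH1A2. In T1074 ALDH1A3 (79.9 ± 40.2) was clear of the next gene in all libraries, and ALDH3A2 (12.5 ± 3.9), ALDH2 (11.3 ± 5.89), ALDH1B1 (10.5 ± 6), ALDH1A2 (7.01 ± 2.32), ALDH3B1 (5.05 ± 2.41) and ALDH1L2 (3.65 ± 2.22) each overlapped with the next of these in the order. ALDH3A1 (0.0425 ± 0.0189), ALDH1A1 (0.0075 ± 0.015) and ALDH3B2 (0) came last.

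**Figure D3:**
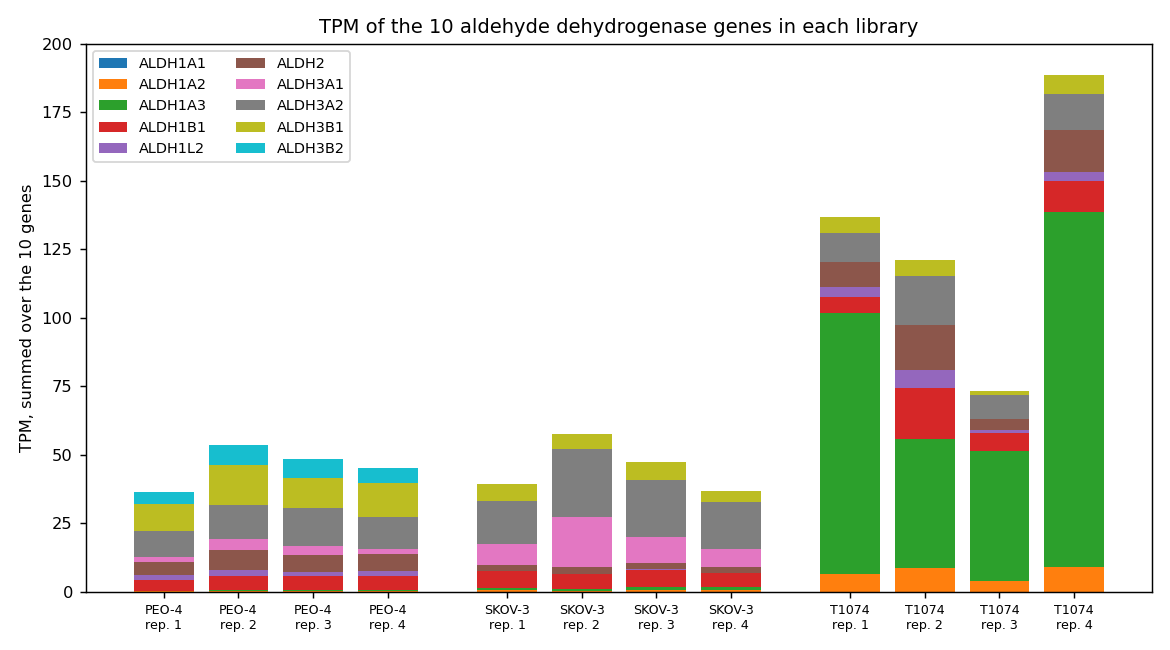
TPM of the 10 ALDH genes stacked in each of the 12 libraries (y axis, summed TPM). The sum lies between 36.4 and 53.4 in PEO-4 libraries, between 36.8 and 57.4 in SKOV-3 libraries and between 73.4 and 188.7 in T1074 libraries, where ALDH1A3 takes 38.9% to 69.8% of it.

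The spread among replicates was widest in T1074. For 7 of the 8 members with counts in all 3 lines, the ratio of the highest to the lowest library was larger in T1074 than in PEO-4 or SKOV-3, ALDH3A2 being the exception. Across the 8 the ratio lay between 1.26 and 4.1 in T1074 and between 1.12 and 2.66 in the cancer lines. T1074 replicate 3 was the lowest T1074 library for ALDH1A2, ALDH1L2, ALDH2, ALDH3A1, ALDH3A2 and ALDH3B1. The share of rRNA was at most 0.631% of counts in PEO-4 libraries, at most 0.0469% in SKOV-3 libraries and between 0.31% and 1.98% in T1074 libraries, and its part in this spread was not tested.

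Of the 133 transcripts of the 10 genes, 55 passed the filter and 44 differed among the lines (edgeR adjusted p under 0.05 over 76043 transcripts), where 58.1% of all transcripts tested did. RSEM divides reads that fit several transcripts by estimate, so these values are less firm than the gene sums. The share of a gene's counts that its leading transcript took was compared between lines in 20 exact two-sided permutation tests of 4 against 4 libraries. None passed after Benjamini-Hochberg adjustment, with a smallest adjusted p of 0.052, while 11 had an unadjusted p under 0.05, all at 0.0286, the smallest that 4 against 4 libraries allow. Adjusted over 20 tests, a p at this limit passes only if many of the tests share it. These tests therefore cannot decide on any single gene. The leading transcript of ALDH3A2, ALDH3A2-201, took 42.7% ± 3.39 of the gene's counts in PEO-4 and 53.4% ± 4.3 in SKOV-3, against 30.8% ± 6.97 in T1074. That of ALDH1A2, ALDH1A2-201, was at 0 in all 4 PEO-4 libraries, took 42.8% ± 27.4 in SKOV-3, and 86.9% ± 3.99 in T1074. The few ALDH1A2 counts of PEO-4, 100.5 in all, went mainly to ALDH1A2-204 (62.7% ± 16.2).

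The transcripts of ALDH3A2 differed among the lines in their start. Of its 42 transcripts, 5 begin at an upstream start, in an exon at chr17:19648136-19648265 that lies 615 bases before the start of ALDH3A2-201, just after the ALDH3A2 window printed above. These 5 had 615, 795, 987 and 916 counts in PEO-4, 777, 1374, 1267 and 916 counts in SKOV-3, and 12, 39.6, 26.6 and 0 counts in T1074 libraries. They took 20.9% ± 1.28 of the gene's counts in PEO-4 and 14.4% ± 3.21 in SKOV-3, against 1.18% ± 0.802 in T1074, with no overlap between T1074 and either cancer line. In the cancer lines these counts came mainly from ALDH3A2-221, with at least 611 in each PEO-4 library and at least 769 in each SKOV-3 library. In T1074 that transcript had 7.88 of the 78.2 counts of the upstream start.

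Another group of ALDH3A2 transcripts had its highest share in T1074. In all, 9 transcripts carry an annotated exon of 4 bases at chr17:19675496-19675499 before the last exon, in place of the 4 bases with which the last exon of the other transcripts begins, and once spliced the versions differ at 1 of these 4 bases. The 9 took 1.57% ± 0.267 of the gene's counts in PEO-4 and 0.395% ± 0.169 in SKOV-3, against 35.3% ± 2.87 in T1074, where each library was between 33.0% and 39.5%. ALDH3A2-233 had no counts in any of the 8 cancer line libraries and 82.3, 395, 311 and 336 counts in T1074. Reads over this junction differ between the versions at that base alone, so the tables do not show whether the reads differ in splicing or in that base. ALDH3A2-240 belongs to both groups, with 44.2 counts in T1074 and 0 in the cancer lines. The gene sums count each transcript once.

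**Figure D4:**
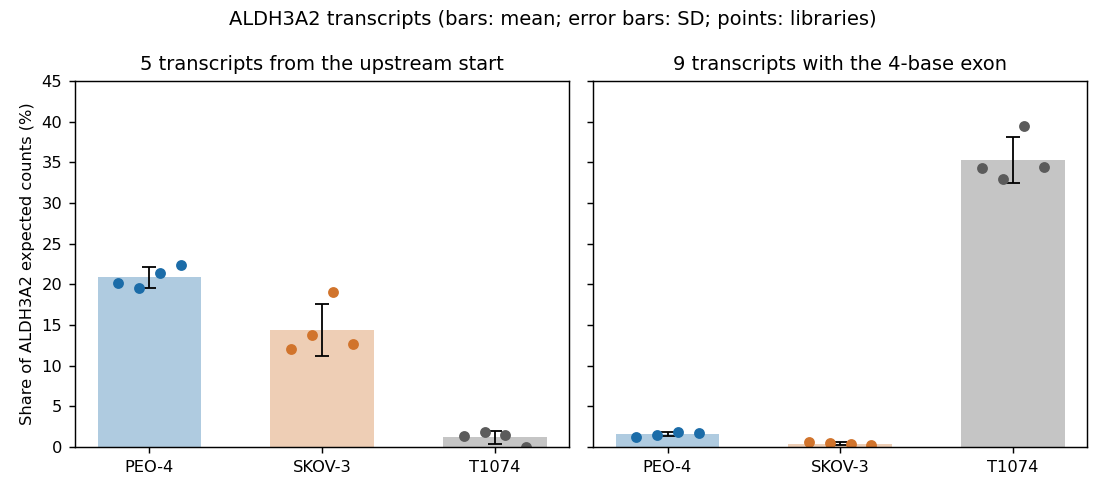
Share of the ALDH3A2 expected counts (y axis, percent) taken by the 5 transcripts from the upstream start (left) and by the 9 transcripts with the 4-base exon (right) in PEO-4, SKOV-3 and T1074, with bars at the mean, error bars of 1 SD and 1 point per library. The upstream start takes 20.9% in PEO-4 and 14.4% in SKOV-3 against 1.18% in T1074, and the 4-base exon takes 1.57% and 0.395% against 35.3%, with 1 transcript in both groups.

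ALDH3B1-204, which begins upstream of the leading ALDH3B1-201, had 179 to 328 counts per PEO-4 library, at most 19.5 counts in SKOV-3 and no counts in T1074. ALDH3B2 in PEO-4 came from ALDH3B2-211 (58.1% ± 2.16) and ALDH3B2-204 (32.6% ± 6.3). ALDH2 was divided among ALDH2-201, ALDH2-202 and a transcript annotated for nonsense-mediated decay, at 34.3%, 33.8% and 31.2% in PEO-4, 31.6%, 46.4% and 20.8% in SKOV-3, and 32.1%, 36.9% and 30.1% in T1074. ALDH1B1 came almost wholly from ALDH1B1-201, at 99.5% in PEO-4, 99.0% in SKOV-3 and 99.4% in T1074.

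Of the 9 other ALDH genes of the genome that were listed, 8 were tested. Of these, 3 were higher and 2 lower in PEO-4 than in T1074, 2 higher and 3 lower in SKOV-3 than in T1074, and 4 higher and 2 lower in PEO-4 than in SKOV-3. The shares over all genes were 36.3% higher and 37.8% lower, 33.3% and 34.5%, and 38.5% and 36.7%. The median log2 fold change was 0.15, -0.05 and 0.55 in the list, against -0.01, -0.03 and 0.05 over all genes. ALDH5A1, which oxidizes succinate semialdehyde, was higher in PEO-4 (log2 fold change 2.34 ± 0.17, edgeR adjusted p = 1.38e-08) and in SKOV-3 (1.39 ± 0.16, 3.27e-06) than in T1074, at 61.6 ± 2.84 and 32.0 ± 1.79 CPM against 12.2 ± 3.53 CPM. ALDH18A1, which starts proline synthesis, was higher in both as well (0.6 ± 0.11 in PEO-4, 0.000183; 1.41 ± 0.11 in SKOV-3, 5.23e-08). ALDH1L1, the cytosolic counterpart of ALDH1L2, was at 3.22 ± 0.205 CPM in PEO-4 and 0.459 ± 0.1 CPM in SKOV-3, against 0.367 ± 0.176 CPM in T1074, and passed in PEO-4 against T1074 (3.14 ± 0.3, 3.35e-07) but not in SKOV-3 against T1074 (0.34 ± 0.32, 0.367). ALDH6A1, of valine breakdown in mitochondria, was lower in SKOV-3 than in T1074 (-1.62 ± 0.21, 8.74e-06), and its value in PEO-4 against T1074 was 0.46 ± 0.2 (0.053).

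Of 10 alcohol dehydrogenases and other aldehyde enzymes, 4 were tested, of which none was higher and 2 lower in PEO-4 than in T1074, 2 higher and 1 lower in SKOV-3 than in T1074, and none higher and 2 lower in PEO-4 than in SKOV-3. The all-gene shares were 36.3% higher and 37.8% lower, 33.3% and 34.5%, and 38.5% and 36.7%, in the same order. Medians of the 4 were -1.3, -0.1 and -0.56 on the log2 scale, against -0.01, -0.03 and 0.05 over all genes. ADH5, which removes formaldehyde bound to glutathione, was at 26.4 ± 1.56 CPM in PEO-4 and 225.5 ± 26.1 CPM in SKOV-3, against 130 ± 20.7 CPM in T1074 cells, lower in PEO-4 (log2 fold change -2.3 ± 0.13, edgeR adjusted p = 1.25e-09) and higher in SKOV-3 (0.79 ± 0.12, 5.73e-05). AOX1, an oxidase that makes acids from aldehydes with oxygen, was lower in both (-3.56 ± 0.59 in PEO-4, 7.83e-05; -2.77 ± 0.56 in SKOV-3, 0.000487). AKR1A1, which reduces aldehydes to alcohols, was higher in SKOV-3 than in T1074 (0.48 ± 0.1, 0.000727).

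The 8 genes listed under fatty aldehyde formation and reduction were all tested. Of these, 1 was higher and 6 lower in PEO-4 than in T1074, 4 were higher and 4 lower in SKOV-3 than in T1074, and 1 was higher and 3 lower in PEO-4 than in SKOV-3. Beside these stand 36.3% of all genes higher and 37.8% lower, 33.3% and 34.5%, and 38.5% and 36.7%, and medians of -0.65, 0.01 and -0.09 in the list against -0.01, -0.03 and 0.05 over all genes. FAR1, which reduces fatty acyl-CoA to fatty alcohol in peroxisomes, was at 15.4 ± 1.09 CPM in PEO-4 and 43.97 ± 5.81 CPM in SKOV-3, against 25.2 ± 3.72 CPM in T1074 cells. PHYH, of the peroxisomal oxidation of phytanic acid, was at 8.35 ± 0.451 and 27.9 ± 4.81 CPM in PEO-4 and SKOV-3, against 14.5 ± 2.42 CPM in T1074. Both were lower in PEO-4 (log2 fold change -0.71 ± 0.13 and -0.79 ± 0.14) and higher in SKOV-3 (0.8 ± 0.13 and 0.95 ± 0.14) than in T1074, with a largest edgeR adjusted p of 0.000173 among the 4. FAR2, the related reductase, was lower in PEO-4 (-0.9 ± 0.14, 3.03e-05) and SKOV-3 (-0.88 ± 0.14, 4.59e-05), and SPHK1, which makes sphingosine phosphate, was lower in PEO-4 (-1.25 ± 0.29, 0.00152) and SKOV-3 (-2.5 ± 0.31, 5.37e-06).

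Of 7 amine oxidases that release aldehydes, 6 were tested, with 4 higher and 1 lower in PEO-4 than in T1074, 3 higher and none lower in SKOV-3 than in T1074, and 4 higher and 1 lower in PEO-4 than in SKOV-3. Among all genes tested, 36.3% were higher and 37.8% lower, then 33.3% and 34.5%, and 38.5% and 36.7%, in the same order. The medians were 2.94, 0.71 and 1.32 on the log2 scale, against -0.01, -0.03 and 0.05 over all genes. AOC1, diamine oxidase, had 630 counts in PEO-4, none in SKOV-3 and 2 in T1074, a ratio of 271 (74.6 to 2240) to T1074 and at least 60.6-fold higher than SKOV-3. MAOB, a mitochondrial monoamine oxidase, was higher in PEO-4 than in T1074 (log2 fold change 4.13 ± 0.56, edgeR adjusted p = 1.07e-05), and so was AOC2 (3 ± 0.29, 2.82e-07). In SKOV-3 against T1074, AOC2 was higher as well (1.66 ± 0.29, edgeR adjusted p = 0.000132), while MAOB did not pass (-1.73 ± 0.83, 0.0791). SMOX, spermine oxidase, was at 5.75 ± 0.222 CPM in PEO-4 and 39.7 ± 4.13 CPM in SKOV-3, against 23.5 ± 9.67 CPM in T1074 cells, lower in PEO-4 (-2.03 ± 0.24, 2.73e-06) and higher in SKOV-3 (0.76 ± 0.23, 0.00879).

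The genes whose pattern was most like that of each member were found among 9794 protein-coding genes with a mean of at least 10 CPM, by Pearson's r of log2 CPM over the 12 libraries, which share lines, so a high r comes with many genes. GPRC5B was among them for ALDH1A3 (r = 0.995), for which 288 genes exceeded 0.95. For ALDH1A2 they were MGARP and STARD3NL (both 0.993, with 342 genes over 0.95), for ALDH1L2 AMOT and MAGI1 (0.992 and 0.991, 154 genes) and for ALDH2 MTMR4 and SLIT3 (0.986 and 0.979, 18 genes). ALDH3A1 was nearest to ZBTB46 and MAL (0.993 and 0.991, 188 genes), ALDH3A2 to ZSCAN31 and DOCK6 (0.987 and 0.98, 123 genes), ALDH3B1 to BMPR1A and RBM7 (0.969 and 0.968, 15 genes) and ALDH3B2 to MAB21L4 and KLK5 (1 and 0.999, 321 genes). ALDH1B1 had no gene over 0.95 and was nearest to JOSD2 and TBC1D1 (0.874 and 0.815).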

How the data were processed

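Total RNA of PEO-4, SKOV-3 and T1074 cells was analysed in 4 libraries per line. Per the study's methods and the submitters' processing notes, the authors used bcl2fastq 2.20.0.422 to demultiplex, Trimmomatic 0.39 to trim, STAR 2.7.3a to align to hg38 and RSEM 1.3.1 to estimate abundance. The deposited expected count is RSEM's estimate of fragments per transcript, not normalized, with shared reads divided among transcripts, and 32.0% to 39.0% of values per library were not whole. The deposited TPM is the same estimate divided by effective length (another deposited column) and scaled to a fixed sum. The labels give the molecule as protein, while the values and methods describe RNA-seq.

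Here, expected counts were summed by gene and rounded. Of 61533 gene IDs, 61369 matched GENCODE 44, which gave symbols and GRCh38 coordinates. Genes were filtered with filterByExpr by line, scaled with TMM and compared in edgeR 4.0.16 (quasi-likelihood F-test, R 4.3.3) with the 12 libraries fitted together. Replicates differed by more than sampling noise (18 pairs, chi-square per degree of freedom 23.2 to 299.8). Floors (3 counts) and exact intervals (95%) take in counting error alone, and no use of molecular identifiers is described. All 10 members are named, and of each list up to 4 genes, taken by the lowest adjusted p over the lines where some line averaged 1 CPM or more. Some genes that this rule or the likeness search names are not reported here. The members and lists were chosen with earlier results of these data known. Alternatives covered DESeq2 1.42.0, other scalings and filters, length-scaled TPM, a replicate block, fits of 8 libraries and leaving out each library. The edgeR test of genes was also run on simulated counts of PEO-4 against T1074, where far fewer genes changed than were called here. The transcript tests, the share tests and the exact intervals were not simulated.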

Additional observations from a re-analysis of the deposited data

Results flagged for a closer look

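ALDH3A1 in SKOV-3 replicate 2 was at 85.2 CPM, far from the 32.1 to 37.7 CPM of the other 3 SKOV-3 libraries. The gap to the nearest of them was 0.895 of the whole range of the line, above Dixon's 95% critical value for 4 samples. It was the only such value among the 26 groups of 4 libraries tested, and chance gives about 1 in 20 groups such a value. Without that library the log2 fold change of ALDH3A1 was 8.37 in SKOV-3 against T1074 (edgeR adjusted p = 1.29e-09) and -1.38 in PEO-4 against SKOV-3 (0.000238).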

How the results depend on the processing

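Over 539 recomputed fold changes of 27 gene and comparison pairs, 528 stayed on their side of the threshold without a change of sign, 6 newly passed it, 5 changed sign and 0 lost it. The 528 include 19 values of ALDH3B2 in SKOV-3 against T1074, from 0 to 1.71. These have no firm direction, since both lines were at or under the floor. All 5 sign changes were values that had not passed: in PEO-4 against T1074, ALDH1L2 was 0.02 without T1074 replicate 2 (-0.48 to 0.02 over single libraries left out), and ALDH2 was -0.14 with scaling by library size only, -0.04 with length-scaled TPM, -0.04 without T1074 replicate 1 and -0.21 without T1074 replicate 3 (-0.21 to 0.29). Scaling by library size only also brought ALDH1B1 past the threshold in SKOV-3 against T1074 (-0.55, adjusted p = 0.0469), and it moved the median of all genes to -0.17 in PEO-4 against T1074 and -0.23 in SKOV-3 against T1074. ALDH3B1 passed in SKOV-3 against T1074 without the filter on low counts (0.72, 0.0108). The numbers of members called stayed within 1.5 times under every alternative, 5 to 7 in PEO-4 against T1074, 6 to 8 in SKOV-3 against T1074 and 7 to 9 in PEO-4 against SKOV-3. The counts of 5 and 7 that lie below the reported 6 and 8 come from asking for a 2-fold difference as well, and the higher counts from fits that add ALDH1A1 or from the newly passed values. On the scale of protein-coding genes the summed TPM was 335 in PEO-4, 282 in SKOV-3 and 665 in T1074, by the construction of that scale. Replicate numbers shared across lines were also fitted as a block: 6, 6 and 8 members were called as before, and 38 transcripts in place of 44. Samples with the same number did not deviate together (r of -0.079 to 0.069 in 12 pairs, against -0.075 to 0.111 in 36 pairs of other numbers), so no pairing by number showed in these values. This check cannot tell whether samples of equal number were prepared together. Shares of the leading transcript by TPM in place of counts, an alternative chosen after seeing the data, again gave 0 of 20 differences past the threshold. The limit set by the smallest p applies there as well. Depth limits statements on ALDH1A1, on ALDH3B2 outside PEO-4 and on ALDH3A1 in T1074.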
